A study of Mus musculus with 6 samples.

Results

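The Tudor domain family examined here comprised 10 genes: Tdrd7, Tdrd3, Tdrd1, Tdrd5, Tdrd6, Tdrd9, Tdrkh, Snd1, Smn1 and Smndc1. They were taken by name, with every probe that the platform annotation assigns to one of them, which gave 18 probes of 45281 on the array and 10 of 19057 named genes. Lens RNA of Tdrd7 null mice (3 arrays) was set against lens RNA of Tdrd7 heterozygous mice (3 arrays), all at postnatal day 4 and on a mixed background of C57BL/6J and C3A.Blia. The heterozygous lenses carry a mutant allele too, and no lens with both Tdrd7 copies intact is part of the comparison. The labels do not describe the mutation. They also do not say that each array is a mouse of its own, so a p-value here reflects the variation among these 6 arrays, which may be technical.

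Tudor domains are small folds that bind methylated arginine or lysine on partner proteins. In germ cells, Tudor proteins dock on the methylated tails of PIWI proteins and hold together the RNA granules in which piRNAs silence transposons. Other members act in all cells, in the assembly and splicing functions of small nuclear ribonucleoproteins and in the control of mRNA. Tdrd7, which carries LOTUS domains besides its Tudor domains, lies in cytoplasmic RNA granules of lens fiber cells, and mice and humans without it develop cataract.

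Per array 13901 to 15765 probes were detected, meaning a detection p-value under 0.05 in the deposited table, and 14636 probes detected on at least 3 of 6 arrays were tested. The lens fiber markers were present: of 8 genes, 7 were on the array by name, and all 7 (among them Cryaa, Mip and Lim2) were detected on 6 of 6 arrays. Null array b stood somewhat apart, with correlations of 0.962 to 0.972 to the other arrays over the tested probes, against 0.984 to 0.99 among the other five. Differences are null minus heterozygous on the log2 scale, from limma with Benjamini-Hochberg adjustment over all tested probes. In whole lens RNA, fewer cells of a type and less RNA per cell cannot be told apart.

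The first question was which Tudor genes gave a signal in the lens. Of the 10 genes 6 did: Tdrd7, Tdrd3, Tdrd9, Tdrkh, Snd1 and Smn1 each had at least 1 probe that was detected on all 6 arrays. The other 4 genes, Tdrd1, Tdrd5, Tdrd6 and Smndc1, had no probe that met the requirement of detection on at least 3 arrays. By probe the split was even, with 9 of 18 detected on all 6 arrays, 8 on none and the Tdrd6 probe in between. The 9 probes that did not meet it had raw signals of 57.2 to 82.5, where the median signal of all probes on an array was 69 to 76.6.

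**Figure D1:**
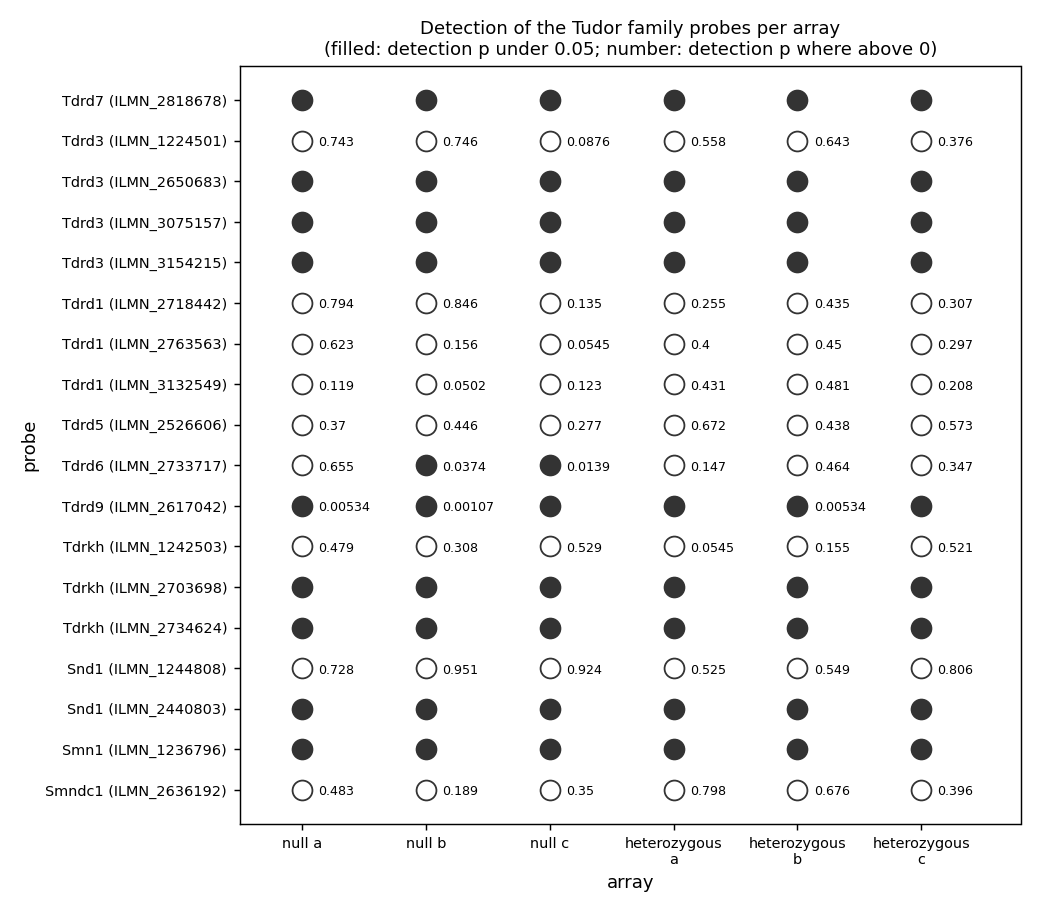
Detection of the 18 Tudor family probes (rows) on the 3 null and 3 heterozygous arrays (columns). Filled circles mark a detection p under 0.05 and numbers give the detection p where it is above 0. Tdrd7, Tdrd9, Smn1 and at least 1 probe each of Tdrd3, Tdrkh and Snd1 are filled in every column, and Tdrd6 is filled on null arrays b and c.

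Genes with several probes were not uniform. Tdrd3 was detected with 3 of its 4 probes, Tdrkh with 2 of 3 and Snd1 with 1 of 2, while all 3 Tdrd1 probes stayed at background. The silent Tdrd3 probe (ILMN_1224501) and the silent Snd1 probe (ILMN_1244808) are the probes of the family whose annotation does not rest on a curated mRNA. The silent Tdrkh probe (ILMN_1242503) rests on a curated mRNA, as do the undetected probes of Tdrd1, Tdrd5 and Smndc1, so the source did not separate silent from detected probes. A probe at background bounds the transcript it was designed on and not every transcript of the gene. For Tdrd5, Tdrd6 and Smndc1 only 1 probe each was present.

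The start-site windows of a detected and an undetected member are shown to set their CpG content side by side, since several germ cell genes are known to have CpG-rich promoters that are methylated in other tissues. RefSeq windows (GRCm38.p6, 250 bases before to 50 after a start) were found for 9 of the 10 members. Capitals mark each CpG, searched as CG, which reads the same on both strands. The Tdrd3 window lies at chr14:87416333-87416632 on the plus strand and the Tdrd5 window at chr1:156303299-156303598 on the minus strand.
Tdrd3: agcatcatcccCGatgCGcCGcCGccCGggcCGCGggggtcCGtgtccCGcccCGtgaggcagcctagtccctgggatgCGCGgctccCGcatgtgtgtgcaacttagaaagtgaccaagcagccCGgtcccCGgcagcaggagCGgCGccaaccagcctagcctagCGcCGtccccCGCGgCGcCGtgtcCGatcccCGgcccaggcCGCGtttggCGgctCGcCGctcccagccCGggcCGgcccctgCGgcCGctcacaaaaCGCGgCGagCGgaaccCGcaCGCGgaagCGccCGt
Tdrd5: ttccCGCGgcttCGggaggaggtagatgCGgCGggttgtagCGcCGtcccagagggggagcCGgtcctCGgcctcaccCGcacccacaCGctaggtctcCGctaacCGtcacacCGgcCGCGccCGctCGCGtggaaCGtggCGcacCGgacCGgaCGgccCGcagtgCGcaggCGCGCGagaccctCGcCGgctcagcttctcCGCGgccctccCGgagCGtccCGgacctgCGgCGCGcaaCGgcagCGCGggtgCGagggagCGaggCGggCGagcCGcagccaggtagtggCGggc

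Tdrd3, detected in lens, had 43 CpGs in its window, a number reached by 2.61% of all 32851 windows. Tdrd5, not detected, had 48, reached by 1.22%. The median over all windows was 7. Taking for each gene its window with the most CpGs, at least 25 were counted in 3 of 3 undetected members with a window (25 in Tdrd1, 35 in Smndc1) and in 4 of 6 detected members. Of these, Tdrd7 had 32 and Tdrkh and Snd1 had 25 each, while Smn1 had 11 and Tdrd9 had 10. The cutoff of 25 lies exactly at the values of Tdrd1, Tdrkh and Snd1, and a higher one would lower both counts. CpG count thus did not separate the detected from the undetected members, and methylation was not measured. At least 25 CpGs were found in 18.4% of all windows. The shares and the median are over single windows. The 9 members had 15 windows in all, and each entered by its richest, which favours high counts.

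The second question was whether the targeted transcript differed as labelled. Tdrd7 (ILMN_2818678) had raw signals of 1266, 1202 and 1103 in null lens, against 13045, 12473 and 13065 in heterozygous lens. All null arrays lay far below all heterozygous arrays, where 5.47% of all tested probes had every null array below every heterozygous one, and none came near the highest signal of an array, 49500 to 52870, where differences can be compressed. In null lens the probe signal of Tdrd7 fell by 3.48 in log2 units (SE 0.153, limma adjusted p = 1.47e-05) and was 8.95% of the heterozygous signal (95% confidence interval 7.06% to 11.3%). The transcript was still detected on 3 of 3 null arrays at a detection p of 0. Only 1 probe reports Tdrd7, and where it lies relative to the mutation was not analysed here.

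Tdrd7 was the only member that passed the test. Of the 9 tested Tudor probes 1 was called, the targeted gene itself, where 0.0137% of all tested probes were called in either direction. At an unadjusted limma p under 0.05 there were 3 of the 9, Tdrd7 and a pair of Tdrd3 probes, where 4.11% of all tested probes had such a p. Apart from Tdrd7, 7 of the 8 tested probes were higher and 1 lower in null lens, with a median log2 difference of 0.14, while over all tested probes 50.5% were higher and the median was 0.0021. Of those 7 probes 3 belong to Tdrd3 and so do not count separately. The adjusted p of these 8 probes ran from 0.964 to 0.976.

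**Figure D2:**
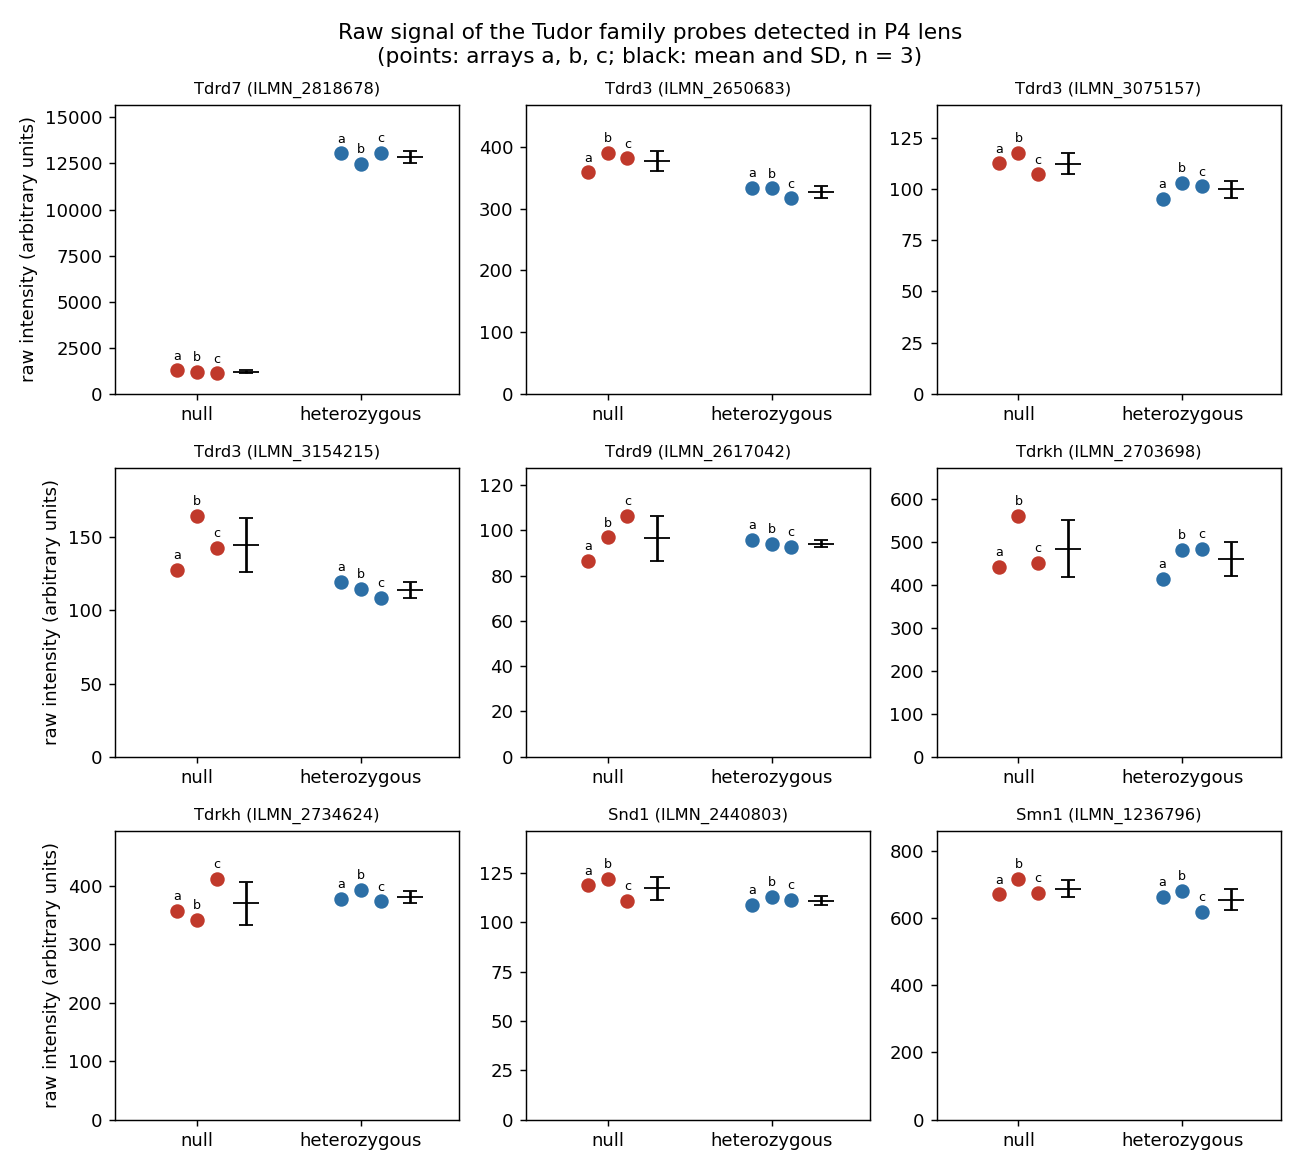
Raw intensity of the 9 detected Tudor family probes, with null arrays left (red) and heterozygous arrays right (blue), letters for the array and black marks for the mean ± SD (n = 3). The axis of each panel starts at 0 and has its own scale. The 2 groups are separate for Tdrd7 and, by a much smaller margin and in the other direction, for the 3 Tdrd3 probes.

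Tdrd3 is a ubiquitous member that reads methylated arginine on histones and on RNA polymerase II, and it joins the topoisomerase Top3b and the FMRP family on mRNA. Its probe ILMN_3154215 had raw signals of 127, 164 and 142 in null lens, against 119, 114 and 108 in heterozygous lens. The groups did not overlap, and the highest value was on null array b. The log2 difference was 0.60 (SE 0.167), a fold of 1.52 with a 95% confidence interval of 1.17 to 1.96.

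Tdrd3 probe ILMN_3075157 had raw signals of 112, 118 and 107 in null lens, against 95.02, 103 and 101 in heterozygous lens, a log2 difference of 0.39 (SE 0.167). Tdrd3 probe ILMN_2650683 had 359, 390 and 382 in null lens, against 334, 333 and 317 in heterozygous lens, a log2 difference of 0.23 (SE 0.138). All 3 Tdrd3 probes thus had their null arrays above their heterozygous arrays, where such a split was found for 5.43% of all tested probes, and they share the same 6 RNA samples. Their unadjusted limma p-values were 0.00519, 0.0418 and 0.129 in the order given, where 2.17% of the tested probes were higher in null lens at an unadjusted p under 0.05. None passed the adjustment (adjusted p = 0.964 for each), so a change of Tdrd3 was not established. The intervals of the other pair of probes reached a fold of 1.70 and 1.45. In the main fit the highest upper end was thus 1.96-fold, for ILMN_3154215. Intervals are not given for the alternatives, in which its log2 difference reached 0.73, so 1.96 is no firm upper limit.

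The size of the Tdrd3 difference moved with the arrays and with the scale. Over all alternatives the log2 differences ran from 0.29 to 0.73 for ILMN_3154215, from 0.16 to 0.51 for ILMN_3075157 and from 0.15 to 0.29 for ILMN_2650683. Without null array b they were 0.48, 0.37 and 0.21 in that order, and without null array a 0.73, 0.38 and 0.24. Median scaling gave larger differences, 0.66, 0.45 and 0.29. Without any one array they stayed above 0. In the authors' normalised values the same probes differed by 0.29, 0.16 and 0.15, and with no background correction by 0.35, 0.19 and 0.19. Probes ILMN_3154215 and ILMN_3075157 were dim, with mean raw signals of 145 and 112 in null lens and 114 and 99.8 in heterozygous lens, so that the background step weighs on their folds. The adjusted p of the 3 probes was at least 0.276 under every alternative run.

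Of 8 tested blood vessel markers 6 had a positive difference, and their summed normalised signal was 363 to 455 on null arrays and 281 to 377 on heterozygous arrays. Of 4 tested red blood cell markers 4 had a positive difference, with sums of 462 to 1073 on null arrays and 311 to 707 on heterozygous arrays. Both ranges overlapped between the groups, and Alas2 of the red blood cell list was detected on no array. The median log2 difference was 0.44 for the vessel markers and 0.71 for the red blood cell markers. Of the 8 vessel markers, 3 had every null array above every heterozygous array and an unadjusted limma p under 0.05, the shares of all tested probes being 5.43% and 2.17%. They were the pericyte gene Rgs5 (log2 difference 1.08), Flt1 (0.51) and Emcn. In the other direction, Tek differed by -0.24 and Pecam1 by -0.10, and a second Kdr probe gave -0.38 where the first gave 0.02. Rgs5 and Flt1 were detected on 3 null arrays and 1 heterozygous array, and Emcn on 3 null arrays and 0 heterozygous arrays (its measured log2 means were 5.11 in null and 4.63 in heterozygous lens). All 3 met the detection filter by their null arrays alone. The filter thus favours a split in this direction for them, and the split is no separate support for a difference. None of these marker genes passed (lowest limma adjusted p = 0.362). Retina and macrophage markers split evenly or nearly so, with 1 of 2 and 2 of 3 higher. Of the tested mesenchyme markers 1 of 3 was higher, and of the lens epithelium markers 2 of 5. Those 2, Foxe3 (0.32) and Sfrp1 (0.26, with a second probe at 0.0021), had every null array above every heterozygous array, and the other 3 were lower. The retina marker Crx (0.27) had such a split too, but met the detection filter by its null arrays alone. Among all tested probes the share was 5.43%. The part of these cells in the Tdrd3 difference was not tested.

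Snd1 encodes Tudor-SN, a nuclease and coactivator that binds double-stranded RNA and is found in stress granules. Its detected probe (ILMN_2440803) had raw signals of 119, 122 and 111 in null lens, against 109, 113 and 112 in heterozygous lens. The groups overlapped, and the log2 difference was 0.18 (SE 0.156, limma adjusted p = 0.964), with a fold interval of 0.889 to 1.44. The Snd1 difference was 0.098 without heterozygous array a, 0.28 without heterozygous array c and 0.076 in the authors' values.

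Smn1 encodes the survival motor neuron protein, whose Tudor domain holds the methylated tails of Sm proteins during assembly of small nuclear ribonucleoproteins. It had raw signals of 669, 715 and 674 in null lens, against 662, 680 and 619 in heterozygous lens. The log2 difference was 0.05 (SE 0.139, limma adjusted p = 0.976), with overlapping groups and a fold interval of 0.836 to 1.29, and it ran from 0.013 to 0.12 over the alternatives. Smndc1, a splicing factor with a Tudor domain like that of Smn1, was at background on all 6 arrays with detection p-values of 0.189 to 0.798.

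**Figure D3:**
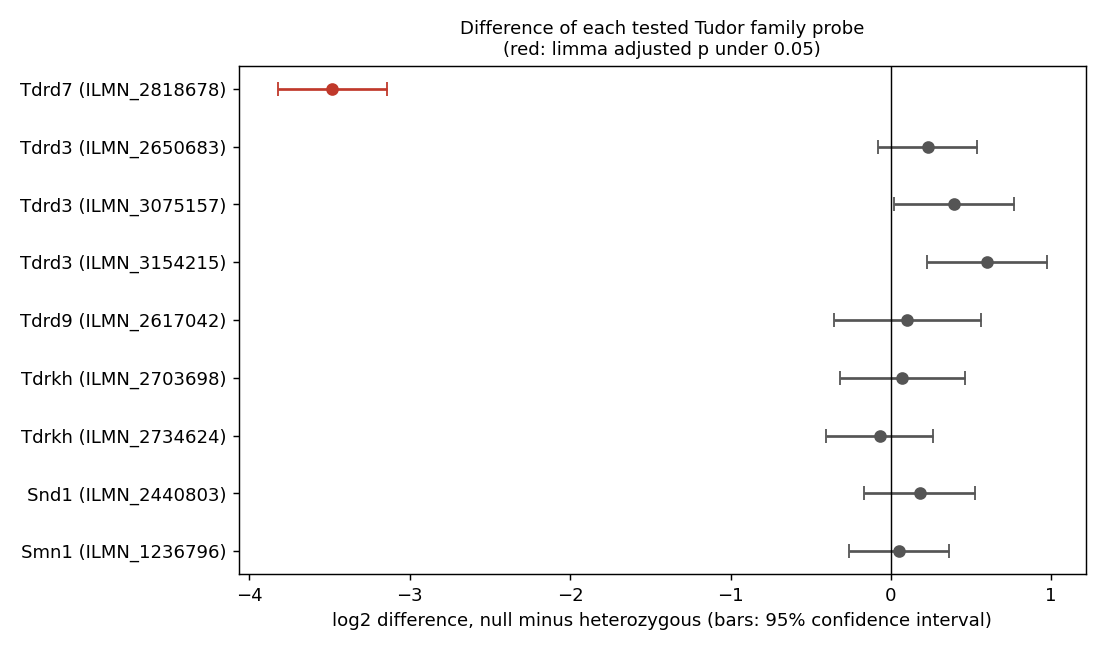
Log2 difference, null minus heterozygous, of the 9 tested Tudor family probes with 95% confidence intervals (limma, 3 arrays per group). Tdrd7, in red, lies at -3.48 and passed the adjusted threshold. The other probes lie between -0.07 and 0.60, and the intervals of 2 Tdrd3 probes exclude 0 before adjustment for the number of probes tested.

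Tdrkh, known from germ cells as the mitochondrial partner of PIWI proteins that helps trim piRNAs, was detected with a pair of probes that disagreed in sign. Probe ILMN_2703698 had raw signals of 442, 561 and 453 in null lens, against 415, 483 and 485 in heterozygous lens, a log2 difference of 0.07 (SE 0.174). Probe ILMN_2734624 had 357, 342 and 412 in null lens, against 377, 393 and 374 in heterozygous lens, a log2 difference of -0.07 (SE 0.149). On null array b the first was the highest of the 6 values and the second the lowest. Without null array b both differences changed sign, to -0.046 and 0.00092. The fold intervals were 0.801 to 1.38 and 0.755 to 1.2, and the groups overlapped for both.

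Tdrd9, a helicase with a Tudor domain that acts on transposon RNA in the male germ line, was detected on all 6 arrays at a low signal. Its raw values were 86.5, 96.9 and 106 in null lens, against 95.9, 94.2 and 92.6 in heterozygous lens. The null arrays spread on both sides of the heterozygous ones, and the log2 difference was 0.10 (SE 0.205, limma adjusted p = 0.972). Its fold interval, 0.782 to 1.48, was wider than that of Smn1, and the sign turned without null array c, at -0.092, and with array weights, at -0.10.

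Tdrd6, a scaffold of the chromatoid body of spermatids, was the one probe detected on some arrays of a single genotype. It was detected on null arrays b and c (detection p of 0.0374 and 0.0139) and on no heterozygous array. Its raw signals were 67.7, 79.8 and 78.0 in null lens, against 77.7, 72.9 and 68.8 in heterozygous lens, so the groups overlapped. Since its null mean did not exceed the lowest detected signals of the heterozygous arrays, no fold is given, and it entered the test only without the filter (log2 difference 0.19, limma adjusted p = 0.968).

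Tdrd1, which binds PIWI proteins in the germ granules of spermatogonia, was detected on no array with any of its 3 probes, and the lowest of its 18 detection p-values was 0.0502. Without the filter its probes ILMN_2718442, ILMN_2763563 and ILMN_3132549 differed by -0.08, 0.10 and 0.20 in log2 units (limma adjusted p of 0.966 or more). The last had its normalised null values above its heterozygous ones, all at background, a split that 5.43% of the tested probes had. Tdrd5, the other mouse Tudor gene with a LOTUS domain, was detected on no array, with raw signals of 72.2, 69.3 and 68.6 in null lens, against 68.3, 73.4 and 65.4 in heterozygous lens. Neither gene was above background in null lens or in heterozygous lens. Of 5 germ cell markers, Sycp1, Sycp3 and Stra8 were detected on no array, Ddx4 on 2 null and 2 heterozygous arrays, and Dazl on 0 null and 3 heterozygous arrays.

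The genes around the family were then described by lists. Of 25 further genes with Tudor-type domains or a LOTUS domain, 24 were on the array and 19 were tested: 6 were higher and 13 lower in null lens, 0 passed, and the median log2 difference was -0.08. The gene with the smallest p was Tdrd12, a piRNA factor, with raw signals of 90.2, 85.8 and 87.4 in null lens, against 82.2, 84.1 and 79.8 in heterozygous lens. The groups of Tdrd12 did not overlap (log2 difference 0.34, SE 0.148, limma adjusted p = 0.964, with detection on 3 null arrays and 1 heterozygous array). Tdrd12 met the detection filter by its null arrays alone, which favours a split in this direction. Of the 19 tested genes 2, Tdrd12 and Uhrf2, had every null array above every heterozygous array, as had 5.43% of all tested probes. Uhrf2, a ubiquitin ligase that reads histone marks, differed by 0.23, the Polycomb accessory gene Mtf2 by -0.25 and the DNA damage reader Trp53bp1 by -0.27. A second Trp53bp1 probe gave 0.32, and other Uhrf2 probes gave 0.07, -0.06 and 0.0036. The meiosis regulator Marf1, with LOTUS domains like Tdrd7, was detected on 6 arrays and differed by 0.25 (SE 0.193).

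**Figure D4:**
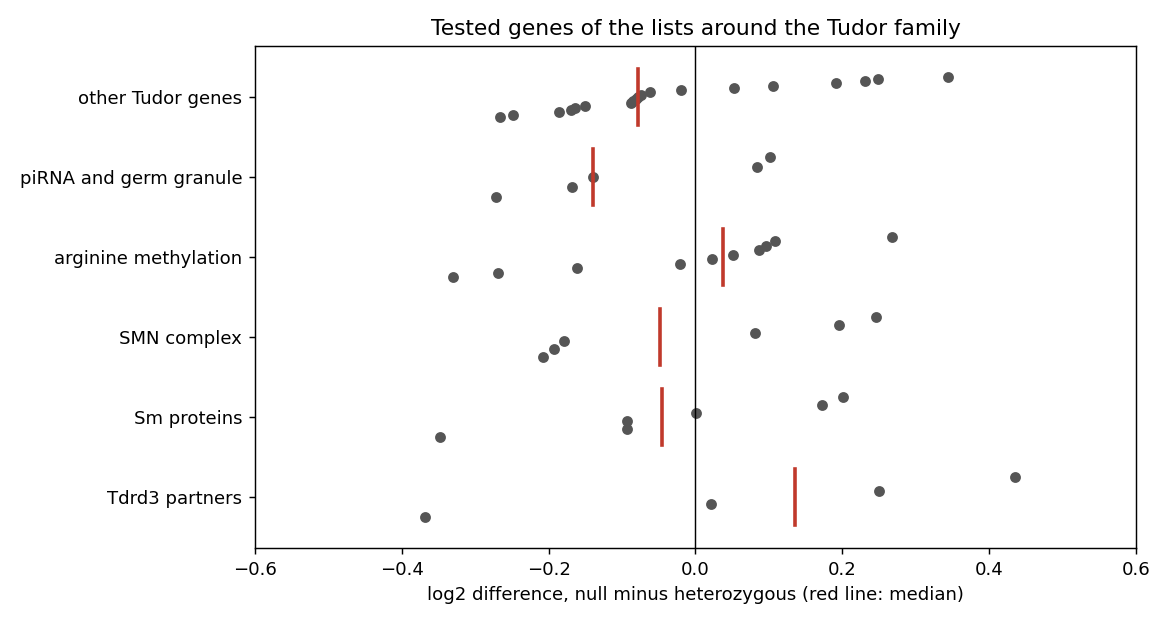
Log2 differences, null minus heterozygous, of the tested genes in 6 lists around the Tudor family, each gene a point and each median a red line. The medians lie between -0.14 and 0.14, points lie on both sides of 0 in every list, and no gene passed the adjusted threshold.

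Of 14 genes of the piRNA pathway and germ granules, 13 were on the array and 5 were tested, 2 higher and 3 lower, with a median of -0.14 and 0 passing. Piwil1, a PIWI protein of spermatids, differed by -0.17, the helicase genes Ddx25 by -0.14 and Ddx4 by 0.08. Dazl, a germ cell translation regulator, had raw signals of 74.7, 76.0 and 72.8 in null lens, against 85.0, 85.7 and 80.4 in heterozygous lens. It was detected on no null array and on all 3 heterozygous arrays. Dazl thus met the detection filter only by its heterozygous arrays. With its null values raised to the lowest detected signal of each array, its heterozygous mean was 1.1-fold higher, which sets no limit on the true difference. It did not pass (limma adjusted p = 0.964), and the 95% interval of its log2 difference, -0.59 to 0.04, included 0. Piwil1, Ddx25 and Gtsf1 were detected on 3 null and 3 heterozygous arrays, at low raw signals of 81.1 to 125. Piwil2, Piwil4, Mael, Pld6 and Henmt1 were detected on no array.

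Of 10 arginine methyltransferases and cofactors, which place the arginine marks that Tudor domains read, all were detected on 6 arrays and tested, 6 higher and 4 lower, with a median of 0.04 and 0 passing. Among them Wdr77, the partner of the methyltransferase Prmt5, differed by -0.27, with a second probe at 0.14. Prmt6 differed by -0.33, Prmt2 by -0.16 and the Prmt5 cofactor gene Coprs by 0.27. Other Prmt6 probes gave 0.00091, 0.01 and -0.45.

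The partners of Smn1 split evenly. Of 8 genes of the SMN complex 6 were tested, 3 higher and 3 lower (median -0.05), with Gemin4 at -0.21, Gemin6 at 0.20, the helicase gene Ddx20 at -0.18 and Gemin7 at 0.25. Of 8 Sm protein genes, the cargo of that complex, 6 were tested, 3 higher and 3 lower (median -0.05), with Snrpd1 at -0.35, Snrpb at 0.17, Snrpf at 0.20 and Snrpd3 at -0.09. A second Snrpd1 probe gave -0.26, and other Snrpb probes gave -0.12 and 0.17. In both lists 0 genes passed.

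Of 4 partners of Tdrd3 all were tested, 3 higher and 1 lower, with a median of 0.14 and 0 passing. Fxr1, an RNA-binding protein of the FMRP family, differed by 0.44 (SE 0.171, limma adjusted p = 0.964). Its null arrays all lay above its heterozygous arrays, a split found for 5.43% of all tested probes. Fxr2 of the same family differed by -0.37, with a second probe at -0.02, Top3b by 0.25, with a second probe at -0.21, and Fmr1 by 0.02. The partners of Tdrd3 thus did not share its sign throughout.

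Finally, named genes outside the family were ranked by the distance of their 6 log2 values, each centred on its probe mean, from those of Tdrd7. Within a genotype the Tdrd7 values varied little (log2 SD 0.17 in null and 0.07 in heterozygous lens). The distance therefore mostly reflects the size of the genotype difference, and the ranking is no separate support for one. A probe with no variation lies at a Euclidean distance of 4.27 log2 units from Tdrd7, and the 3 nearest genes were Snhg12 (2.16), Ttc27 (2.75) and 2410006H16Rik (2.85). Snhg12, a snoRNA host gene, was the other called probe of the table and fell by 1.72 on the log2 scale (adjusted p = 0.0119). Over the alternatives its limma adjusted p ran from 0.000783 to 0.316. It did not pass when any 1 heterozygous array was omitted (0.207 for a, 0.108 for b and 0.156 for c), when dim probes were kept (0.0843) or with the replicate block on the authors' values (0.316). Ttc27 had raw signals of 107, 215 and 120 in null lens, against 267, 258 and 401 in heterozygous lens, and differed by -1.55 (SE 0.379, limma adjusted p = 0.964). Its values varied within each group far more than those of Tdrd7. All 3 genes differed by less than Tdrd7 itself.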

How the data were processed

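RNA from the lens at postnatal day 4 was hybridised, as biotinylated cRNA, to 6 bead arrays (TotalPrep kit for Illumina, per the labels). The deposited raw table gives a linear intensity for every probe on each array, not normalised between arrays, beside its detection p-value, per the file headers. The authors also deposited intensity values they had normalised. The values, whose method is not given in the sources used here, are linear and not centred, and their column medians were 72.6, 74.15 and 72.98 (null replicates 1 to 3) and 72.5, 72.76 and 72.65 (heterozygous replicates 1 to 3). They served as an alternative. Raw columns carry a genotype but no replicate number, and the letters a, b and c only tell the arrays of a genotype apart.

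Background correction and quantile normalisation used neqc of limma 3.58.1 in R 4.3.3, with an offset of 16, and probes detected at p under 0.05 on at least 3 arrays were kept. The difference, null minus heterozygous, came from lmFit and eBayes (two-sided) with Benjamini-Hochberg adjustment over 14636 probes and a threshold of 0.05. Of 45281 probes 34885 had 1 gene symbol, 18 several and 10378 none. The gene table of GRCm38.p6 matched 34807 and served for names. Members, lists and tests were chosen with earlier results of these data known. Every member probe was named, and of each list the up to 4 tested genes of smallest p, each by its probe with the highest mean signal. Marf1, Gtsf1, the named vessel, lens epithelium and retina markers and the list genes said to be detected on no array were named after their values were seen. The fit was tested on simulated data, where a minimum share of recovered changes was required only for the largest simulated fold. No such share was required for smaller changes, so differences as small as those of Tdrd3 may be missed. Alternatives covered background, normalisation, filter, variance model, array weights, the replicate number and each array left out.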

Additional observations from a re-analysis of the deposited data

How the results depend on the processing

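The Tdrd7 difference kept its sign and its call under all 14 alternatives, at -3.57 to -3.37 with an adjusted p of 1.08e-07 to 0.00552, and 1 Tudor probe, that of Tdrd7, was called in each. The number of Tudor genes detected stayed at 6 when 3 or more arrays had to reach a detection p under 0.01 and when all 6 had to reach 0.05, and became 7, with Tdrd6, when 1 array sufficed. The number of called probes over the whole table, 2, became 13 with array weights and 1 with dim probes kept, and ran from 1 to 3 with 1 array left out, being 1 without heterozygous array a, b or c. Of 112 values for the other 8 tested Tudor probes 107 kept their sign, and none was called. Tdrd9 turned to -0.10 with array weights and ran from -0.092 to 0.30 with 1 array left out. Over the same omissions Tdrkh probe ILMN_2703698 ran from -0.046 to 0.16, turning without null array b or heterozygous array a, and ILMN_2734624 from -0.14 to 0.00092.

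A fit with the replicate numbers as a replicate block was made on the authors' values, whose columns carry those numbers, and called 1 probe, Tdrd7, against 2 without the block. Deviations of same-numbered arrays from their group means correlated at 0.154, -0.159 and -0.148. With 3 arrays per group such values cannot decide whether the numbers pair the samples. Signals near background limit Tdrd9, Snd1 and 2 Tdrd3 probes, whose folds depend on the background step. A probe at background does not show that its gene is silent.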
